A study of Drosophila melanogaster with 4 samples.

Results

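The regions described here are all H3K4me1 regions of *Drosophila melanogaster* chromosome 4, the dot chromosome, as mapped in nuclei of heads from the wild-type strain Oregon-R. They were chosen by their sequence name alone, with no use of a measured value. Chromosome 4 held 131 of the 7785 regions of ChIP replicate 1, 170 of the 8341 regions of ChIP replicate 2 and 175 of the 9680 regions of the list that the authors called on the replicate set, named the combined list here. Monomethylated histone H3 lysine 4 was precipitated with 1 antibody, ab8895, from crosslinked and sonicated chromatin, and 2 ChIP libraries and 2 input libraries were sequenced. All 4 libraries came from 1 genotype and 1 stage, mixed adult, with heads sieved from whole flies of population cages. The sex of the flies was not given, many flies were pooled, and heads mix neurons, glia, eye and other cells, so that fewer nuclei carrying the mark and a weaker mark in each nucleus cannot be told apart. The labels do not say whether each replicate had a fly population of its own, and the spread between replicates may be technical. No read totals came with the lists, so the depth behind each region is unknown. Coordinates are 1-based positions on FlyBase release 5, where chromosome 4 is 1351857 bp long.

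H3K4me1 marks enhancers and the flanks of active promoters, and in flies the methyltransferase Trr places much of it. Chromosome 4 is the smallest autosome. Its genes lie among many repeats and in chromatin rich in heterochromatin protein HP1a and in methylated H3 lysine 9, yet most of them are transcribed, and the protein POF binds along the chromosome. Positions count from the centromeric side towards the telomere. The RefSeq table of genome release 6 lists 80 protein-coding genes on it. Among them are the eye regulators ey and toy, the Hedgehog pathway transcription factor ci and the Wnt pathway factor pan. Others act at synapses: Syt7, a calcium sensor of vesicle release, unc-13, a vesicle priming factor, mGluR, a glutamate receptor, and CaMKII, a calcium-dependent kinase. No region was assigned to a gene, because the table and the region lists are on different releases, and the tissue label could not be checked against marker genes for the same reason.

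H3K4me1 regions were dense on chromosome 4. Replicate 1 had 96.9 and replicate 2 had 126 regions per Mb there, a mean of 111 ± 20.4 (SD, n = 2), against 59.9 and 67.0 per Mb on the arms 2L, 3L and 3R together. They covered 28.7% of chromosome 4 in replicate 1 and 37.9% in replicate 2, a mean of 33.3% ± 6.48 (SD, n = 2). The same arms were covered to 22.7% in replicate 1 and 21.3% in replicate 2, a mean of 22.0% ± 1.00 (SD, n = 2). Chromosome 4 was thus above the pooled arms in both replicates and above each of the arms alone. The ratio of covered shares was 1.27 in replicate 1 and 1.78 in replicate 2, and the combined list, covered to 47.3% on chromosome 4 and 29.2% on the arms, gave 1.62. No test was made between chromosomes, since there is 1 chromosome 4 and regions along it are not independent.

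The regions that made up this density were mostly weak. Each region carried the authors' enrichment score, whose scale the files do not state and which was used only within a list. When only the higher-scoring 50% of each whole list was kept, chromosome 4 kept 16.0% of its regions in replicate 1 and 32.9% in replicate 2, with 29.7% in the combined list, while the arms kept 45.8%, 47.5% and 44.8%. The replicates then differed in direction. In replicate 1 chromosome 4 was covered to 7.72% by 21 regions, below the 15.0% of the arms, a ratio of 0.51. In replicate 2 it was covered to 18.2% by 56 regions, above the 14.0% of the arms, a ratio of 1.31. Part of the second value came from the chromosome end: without the first and last 100 kb, the ratio in replicate 2 was 1.13 and that in replicate 1 was 0.55. The combined list was nearly even, with 21.7% on chromosome 4 and 20.8% on the arms, a ratio of 1.05. The high density of chromosome 4 therefore held in both replicates only with the lower-scoring regions included.

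**Figure D1:**
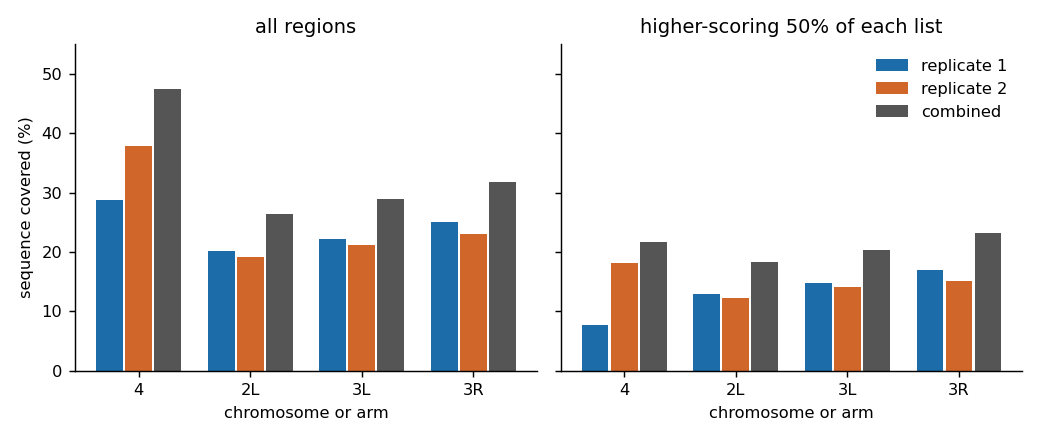
Share of the sequence covered by H3K4me1 regions (y axis, percent) on chromosome 4 and on arms 2L, 3L and 3R (x axis), for all regions on the left and for the higher-scoring 50% of each list on the right, with 1 bar per list. On the left chromosome 4 is highest in all 3 lists, while on the right its replicate 1 bar, at 7.72%, is the lowest of the replicate 1 bars.

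Stretches of the arms as long as chromosome 4 were all covered less densely in replicate 2 and the combined list, but not in replicate 1. The arms 2L, 3L and 3R were laid out in 55 consecutive stretches of 1351857 bp. In replicate 1, 12 of the 55 stretches exceeded the 28.7% of chromosome 4, and the highest reached 35.7%. In replicate 2 and in the combined list none of the 55 did, with highest stretches of 31.9% and 43.6%. The lead of chromosome 4 over whole arm stretches was thus a feature of replicate 2 and the combined list, and replicate 1 placed it within the upper range of the arms.

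The mark was spread over most of the chromosome rather than gathered in a few places. In windows of 50 kb, of which chromosome 4 has 27 full ones, the median window was covered to 29.1% in replicate 1 and 40.3% in replicate 2, and to 50.5% in the combined list. The median over 1508 windows of 2L, 3L and 3R was 17.7%, 17.1% and 25.8%. Sparse windows were few: 3 of 27 chromosome 4 windows (11.1%) in replicate 1 and 1 of 27 (3.70%) in replicate 2 were covered to less than 10%, against 39.3% and 38.3% of the arm windows. Very dense windows were not more frequent in replicate 1, where 11.1% of the chromosome 4 windows and 13.7% of the arm windows were covered to more than 50%. In replicate 2 these shares were 29.6% and 10.9%. The highest chromosome 4 window of any list reached 75.1%, whereas single arm windows reached 99.0%. These are maxima over 27 and 1508 windows, and a larger set has more room for a high maximum.

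The most covered windows lay in the middle of the sequence and in its distal part. By the mean of the replicates the first was window 10, from 450001 to 500000, covered to 54.1% in replicate 1 and 57.2% in replicate 2, with 74.1% in the combined list. Window 21, from 1000001 to 1050000, was covered to 52.8%, 55.2% and 71.4%. Window 11, from 500001 to 550000, was covered to 51.8%, 52.2% and 67.0%. In these 3 windows the replicates differed by at most 3.12 percentage points. Taken by the 2 sides of its midpoint, the chromosome was nearly even in replicate 1, with 28.8% on the centromeric side and 28.6% on the telomeric side, and differed little more in replicate 2, with 35.9% and 39.8%.

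**Figure D2:**
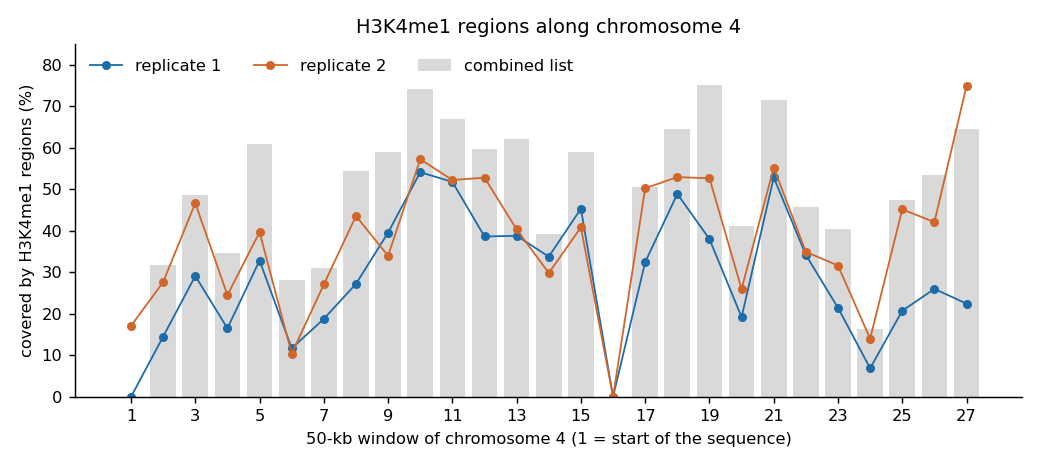
Share of each full 50-kb window of chromosome 4 covered by H3K4me1 regions (y axis, percent) against the window's number from the start of the sequence (x axis), with lines for the ChIP replicates and bars for the combined list. All lists fall to 0 at window 16, and the replicates part most at window 27, with 22.4% in replicate 1 and 74.9% in replicate 2.

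The longest stretch without a region was the same in all 3 lists. No list had a region from 737602 to 802279, a gap of 64.7 kb that contains the whole of window 16. The gap measured 65.4 kb in replicate 1 and 66.5 kb in replicate 2, so its borders differed by less than 2 kb between the lists. Gaps of this length were not rare on the arms, where 182 of 4518 gaps in replicate 1 and 164 of 5052 in replicate 2 were at least as long. Other long gaps differed between the replicates. Replicate 1 had 10 and replicate 2 had 6 gaps of at least 20 kb, the combined list 2. After the longest, those of replicate 1 measured 40.0, 37.8, 36.2 and 32.0 kb, and those of replicate 2 measured 38.4, 31.2, 26.1 and 24.2 kb. The next gap of the combined list ran from 1158193 to 1194110 over 35.9 kb. Replicate 1 had no region there and replicate 2 covered 4.65% of it. It made window 24 one of the 3 least covered, with 6.87% in replicate 1 and 14.0% in replicate 2. The other gaps among the 5 longest of the combined list were 19.3 kb from 647832, 18.7 kb from 299334 and 18.0 kb from 807958, and replicate 2 covered 0%, 0.652% and 8.23% of them. Shares and gaps were taken over the full sequence, and bases where reads cannot be placed were not removed. Chromosome 4 carries many repeats, and how far unplaced reads made the gaps was not tested.

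Neighbouring regions lay a few kb apart. The median gap between them was 2900 bp in replicate 1 and 2513 bp in replicate 2, a mean of 2706 ± 273 bp (SD, n = 2), while the combined list had 1971 bp. On the arms it was 3053, 3072 and 2835 bp. The wide gaps differed more than the median did: the upper quartile was 8020 bp in replicate 1 and 5244 bp in replicate 2 on chromosome 4, and 11702 and 11300 bp on the arms. Of the gaps on chromosome 4, 9.23% were no longer than 500 bp in replicate 1 and 11.8% in replicate 2, against 19.5% and 16.3% on the arms. Joining regions across gaps of up to 500 bp left 119 domains in replicate 1 and 150 in replicate 2, with 148 in the combined list. The widest domain of the combined list was 17.5 kb on chromosome 4 and 56.4 kb among the far more numerous 4438 domains of the arms.

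Single regions were narrower than or as wide as those of the arms, depending on the list. The median width was 2198 bp in replicate 1 and 2168 bp in replicate 2, a mean of 2183 ± 21.6 bp (SD, n = 2). On the arms it was 2844 bp in replicate 1 and 2335 bp in replicate 2. In the combined list the medians were 2674 bp on chromosome 4 and 2691 bp on the arms, which hardly differ. The narrowest arm region was 1301 bp in each replicate list and 1001 bp in the combined list, so widths are compared within a list only. Replicate 1 had the clearest shift, with 42.0% of its chromosome 4 regions under 2 kb against 27.1% on the arms. In replicate 2 these shares were 36.5% and 35.4%. Broad regions over 10 kb were few, with 3 of 131 in replicate 1, 2 of 170 in replicate 2 and 10 of 175 in the combined list. They were few on the arms too, with 178 of 4521, 79 of 5055 and 349 of 5561. Within each list wider regions had higher scores, with a Spearman rho of 0.63 over the 131 regions of replicate 1 and 0.68 over the 170 of replicate 2, given as a description across regions that share a library.

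At equal width the regions of chromosome 4 had lower scores than those of the arms. In replicate 1 the median score was 0.58 on chromosome 4 and 0.71 on the arms, in replicate 2 it was 0.96 and 1.07, and in the combined list 0.47 and 0.55. Each chromosome 4 region was then ranked among the 2L, 3L and 3R regions of its width class and list. The median rank was the 23.7th percentile in replicate 1 and the 34.6th in replicate 2, a mean of 29.2 ± 7.73 (SD, n = 2), where 50 would mean no difference. In replicate 1, 96 of 131 regions (73.3%) ranked below the median of their class, and in replicate 2, 111 of 170 (65.3%). The lowest 25% of the class held 51.1% and 40.0% of the regions. Against 2L, 3L or 3R alone the mean percentile was 30.6, 29.8 and 27.8, so the choice of arm moved it by less than the spread between the replicates.

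The shortfall in score was smallest among the narrowest regions and did not grow steadily with width. Under 2 kb the median score was 0.52 against 0.54 on the arms in replicate 1 (55 regions) and 0.74 against 0.79 in replicate 2 (62 regions). From 2 to under 3 kb it was 0.60 against 0.68 in replicate 1 (35 regions) and 0.99 against 1.12 in replicate 2 (51 regions). Between 3 and 5 kb the chromosome 4 median was 0.67 against 0.81 in replicate 1 (28 regions) and 1.17 against 1.26 in replicate 2 (38 regions). In the class from 5 to under 8 kb it was 0.77 against 0.88 over only 6 regions in replicate 1, and 1.18 against 1.41 over 15 regions in replicate 2. The class of 8 kb and over went in opposite directions. Its 7 regions in replicate 1 had a median of 0.90 against 0.95, whereas its 4 regions in replicate 2 had a median of 2.21 against 1.51. Of these 4 regions 2 lay in the last 100 kb of the chromosome.

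**Figure D3:**
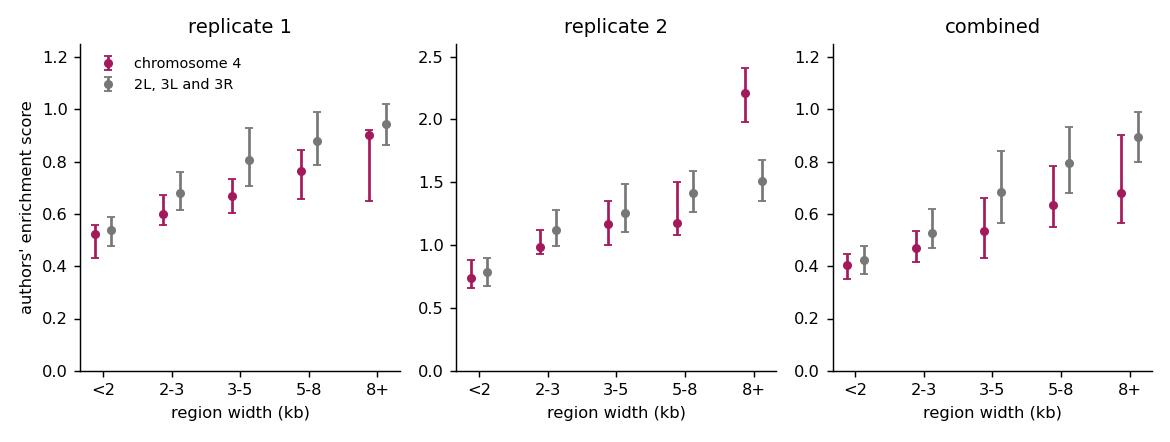
Authors' enrichment score (y axis, scale not stated, a separate axis for replicate 2) by region width in kb (x axis), with points for the median and bars for the middle 50% of regions, on chromosome 4 and on 2L, 3L and 3R together. The chromosome 4 median is lower in every class of every list, except for the class of 8 kb and over in replicate 2, which holds 4 regions.

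The strongest shared region of chromosome 4 was also among its broadest. Of the 91 combined-list regions found in each of the replicates, the top score was 1.27, from 518563 to 534025, a region of 15.5 kb. Replicate 1 covered 93.7% of it with 1 region that scored 1.16, and replicate 2 covered 80.7% with 1 region that scored 2.06. This region was thus called as 1 piece in each replicate, which did not span all of it. Next were the regions from 1298385 to 1303292 with a score of 1.21 and from 1308154 to 1315049 with 1.20, both inside the widest replicate 2 region, while replicate 1 covered 56.8% and 55.7% of them. The region from 720619 to 727971 scored 1.14, and replicates 1 and 2 covered 84.9% and 82.4% of it. The last of the 5, from 434449 to 440663, scored 1.01. Of the 9680 regions of the list, 86 scored above the first and 667 above the last, which puts them at the 99.1th and the 93.1th percentile.

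The scores of the broadest shared regions ranged from the middle of the list to its top. From 996490 to 1012001 the combined list had a region of 15.5 kb with a score of 0.89, at the 84.6th percentile of the list, called as 3 pieces in each replicate, which covered 94.0% of it in replicate 1 and 59.3% in replicate 2. The region from 667116 to 679999, of 12.9 kb, scored 0.94, at the 88.0th percentile, and was covered to 93.0% and 80.1%. Next came 137197 to 149670, of 12.5 kb, with a score of 0.57 at the 47.1th percentile, and replicate 1 covered 71.6% and replicate 2 covered 86.9% of it. The last, from 565900 to 577846, of 11.9 kb, scored 0.67, at the 61.5th percentile, and was covered to 89.5% and 90.9%. Both replicates thus filled most of each broad region, even where its score was near the middle of the list. These regions were called on the same replicates and picked for an overlap with both, so the coverage is no independent support for them.

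Sharing between the replicates was uneven in its 2 directions. Of the 131 chromosome 4 regions of replicate 1, 113 or 86.3% (exact 95% Clopper-Pearson interval 79.2% to 91.6%) overlapped a replicate 2 region by at least 1 bp, beside 77.3% of all replicate 1 regions and 81.9% (80.7% to 83.0%) of those on 2L, 3L and 3R. Of the 170 regions of replicate 2, 111 or 65.3% (57.6% to 72.4%) overlapped replicate 1, beside 80.5% of all replicate 2 regions and 80.5% (79.4% to 81.6%) of those on the arms. The intervals cover counting error over regions only. The second share was much lower without the weaker regions. In the higher-scoring 50% of each list, 76.2% of the replicate 1 regions and 25% of the replicate 2 regions of chromosome 4 were found in the other. With equal numbers of top-scoring regions in each whole list these shares were 76.2% and 26.4%. The higher-scoring 50% left chromosome 4 with 21 regions in replicate 1 and 56 in replicate 2, which covered 7.72% and 18.2% of it. Replicate 1 thus had few regions to match, and arm shares under these filters are not given here. Over all regions, replicate 2 therefore held most of what replicate 1 held on chromosome 4 and added 59 regions, while on the arms the shares were close to equal. In bases, the replicates shared 298 kb, which was 76.7% of the covered bases of replicate 1 and 58.1% of those of replicate 2, and replicate 2 alone covered 214 kb. On the arms these shares were 75.1% and 80.1%. Replicate 2 covered 37.9% of chromosome 4 and replicate 1 covered 28.7%, and an overlap of 1 bp is easier to reach where the other list covers more. How far this set the shares was not tested.

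The uneven sharing held at matched width. Under 2 kb, replicate 2 held 72.7% (59.0% to 83.9%) of the replicate 1 regions of chromosome 4 and 53.1% (50.3% to 56.0%) of those of the arms. In the same class replicate 1 held 41.9% (29.5% to 55.2%) of the replicate 2 regions, against 55.1% (52.8% to 57.4%). From 2 to under 3 kb the replicate 2 share was 66.7% (52.1% to 79.2%) against 89.2% (87.5% to 90.8%), and from 3 to under 5 kb 84.2% (68.7% to 94.0%) against 97.1% (95.9% to 98.0%). All 15 replicate 2 regions from 5 to under 8 kb and all 4 of 8 kb and over were found in replicate 1. At the widths of the chromosome 4 regions, the class shares of the arms would have given 75.0% for replicate 1 and 79.7% for replicate 2, where 86.3% and 65.3% were observed.

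**Figure D4:**
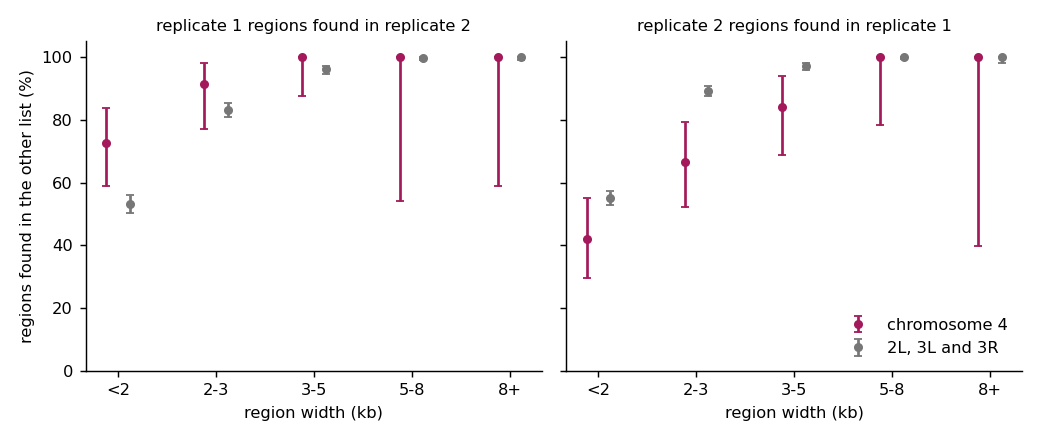
Share of regions found in the other ChIP replicate by at least 1 bp (y axis, percent) by region width in kb (x axis), for replicate 1 on the left and replicate 2 on the right, with exact 95% intervals, on chromosome 4 and on 2L, 3L and 3R together. For widths under 3 kb the chromosome 4 points lie above the arm points on the left and below them on the right.

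Regions found in 1 replicate were narrow, but those of replicate 2 were not all weak. In replicate 1 the 18 unshared regions had a median width of 1641 bp and a median score of 0.54, against 2532 bp and 0.59 for the 113 shared ones. In replicate 2 the 59 unshared regions had a median width of 1959 bp and a median score of 0.91, against 2842 bp and 1.00. The arms were alike in width: unshared regions had medians of 1719 bp in replicate 1 and 1701 bp in replicate 2, against 3306 and 2753 bp for shared ones. In score the arm classes lay further apart than those of chromosome 4. Unshared arm regions had a median score of 0.59 against 0.76 in replicate 1 and 0.82 against 1.14 in replicate 2. Unshared arm regions of replicate 2 still scored up to 3.51. On chromosome 4 the highest-scoring unshared regions of replicate 1 lay inside the chromosome and scored low: 0.69 from 975907 to 978321, 0.62 from 449226 to 451292 and 0.61 from 352005 to 353396. Those of replicate 2 were all near the telomeric end and scored high. They were 1292532 to 1295720 with 2.34, exceeded by 24 of the 8341 scores of the list, 1338798 to 1342717 with 2.28 and 1325826 to 1329553 with 1.84. Over the 66 pairs of regions that matched singly in both lists, the Spearman rho between the replicates was 0.54 for scores and 0.60 for widths, and over 2383 such pairs on the arms it was 0.62 and 0.74. These correlations describe pairs from the same libraries.

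Replicate 2 exceeded replicate 1 along most of the chromosome. Its covered share was higher in 22 of the 27 windows, lower in 4 and equal in window 16, with a median difference of 7.12 percentage points. On the arms it was higher in 560 and lower in 743 of 1508 windows, with a median difference of 0. The windows kept a similar order in both replicates, with a Spearman rho of 0.75 over 27 windows, against 0.95 over the arm windows, where the shares also range more widely. Without the first and last 100 kb the rho on chromosome 4 was 0.80. The covered share of the whole chromosome was 1.32 times as high in replicate 2 as in replicate 1, and on the arms it was 0.94 times as high. In the higher-scoring 50% of each list the ratio on chromosome 4 rose to 2.36.

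**Figure D5:**
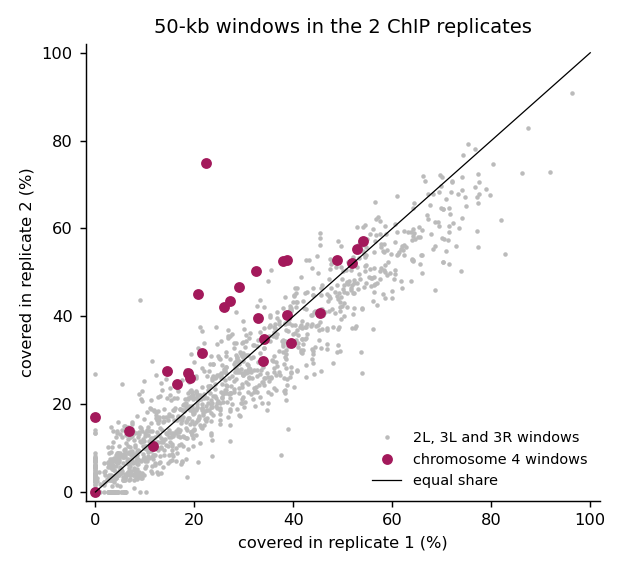
Share of each 50-kb window covered in replicate 2 (y axis, percent) against replicate 1 (x axis, percent), for the 27 windows of chromosome 4 and 1508 windows of 2L, 3L and 3R. The line marks equal shares, and 22 chromosome 4 windows lie above it, the farthest with 74.9% in replicate 2 and 22.4% in replicate 1.

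The window nearest the telomere differed most between the replicates. In window 27, from 1300001 to 1350000, replicate 1 covered 22.4% and replicate 2 covered 74.9%, which was 52.5 percentage points more and which none of the 1508 arm windows reached, where the largest was 34.6. The next largest on chromosome 4 was 24.4 points in window 25, inside the chromosome. Windows 1 and 26 differed by 17.1 and 16.1 points, no more than window 17 inside the chromosome, with 17.8. The last 100 kb, chosen after these values were seen, were covered to 24.2% in replicate 1 and 58.5% in replicate 2, with 58.2% in the combined list. Their 12 replicate 1 regions had a median score of 0.69, against 0.58 over the part between the ends, and their 13 replicate 2 regions had 1.77 against 0.95. The median score of this segment was thus above that between the ends in both replicates, but the segment was chosen with such values seen. In replicate 1 the median was 0.60 in window 26 and 0.97 in window 27, while window 18 inside the chromosome had 0.71. Coverage of the segment was above that between the ends in replicate 2 and the combined list but not in replicate 1. The highest score of replicate 1 on the chromosome, 1.36, lay in the last 100 kb, from 1303810 to 1305350. So did that of replicate 2, 2.57, on its widest region, which ran over 17.2 kb from 1298234 to 1315413 and was broken into 4 regions that covered 47.6% of it in replicate 1.

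At the telomeric ends of the arms, the outer 100 kb were covered to 24.9% and 27.7% on 2L, to 2.18% and 6.66% on 3L and to 12.5% and 13.3% on 3R, in replicate 1 and replicate 2. Only 3L had a ratio of replicate 2 over replicate 1, 3.05, as high as the 2.42 of chromosome 4, and it rests on 1 and 4 regions. High scores were also found at arm ends: the highest in the last 100 kb of 3R was 1.51 in replicate 1, above the 1.36 of chromosome 4, and 2.10 in replicate 2. The outer 100 kb of 2L held a combined-list score of 2.48, above the highest of chromosome 4. At the other end of chromosome 4, the first 50 kb held 4 regions in replicate 2, which covered 17.1%, and none in replicate 1 or the combined list. The first 100 kb held 3 regions in replicate 1 and 9 in replicate 2, of which 7 were missing from replicate 1. Replicate 1 began at 64456 and ended at 1322774, whereas replicate 2 began at 28101 and ended at 1349044, 2813 bp from the end of the sequence. Between the ends, 104 of 148 replicate 2 regions (70.3%) were found in replicate 1, beside 65.3% on the whole chromosome and 80.5% of all replicate 2 regions. The lower sharing of replicate 2 regions was thus smaller without the ends but not confined to them. Widths were not matched for this share. Whether repeats or read placement set the values at the ends was not tested.

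The combined list held every replicate 1 region of chromosome 4, beside 99.7% of replicate 1 regions over all sequences. It held 153 of the 170 replicate 2 regions, or 90.0%, beside 93.9% over all sequences. Of its 175 regions, 91 or 52.0% (44.3% to 59.6%) overlapped both replicates, beside 52.7% over all sequences. Another 43 or 24.6% (18.4% to 31.6%) overlapped replicate 2 only, beside 11.2%, and 14 or 8.00% (4.44% to 13.1%) overlapped replicate 1 only, beside 15.1%. The remaining 27 or 15.4% (10.4% to 21.6%) overlapped neither, beside 21.0%. Of the combined-list regions on 2L, 3L and 3R, 57.0% (55.7% to 58.3%) overlapped both replicates. Another 11.7% overlapped replicate 2 only, 12.7% replicate 1 only and 18.5% neither. In its share found in both replicates chromosome 4 was thus close to the whole list and lower than the arms, whose share lay inside its interval. Its share found in replicate 2 only was higher than either. The 27 had a median width of 1186 bp, beside 4564 bp for the 91, and the highest-scoring of them lay from 1277975 to 1279229 with a score of 0.66. The highest combined score of the chromosome, 1.98, belonged to a region of 1001 bp from 1347869 to 1348869 that overlapped replicate 2 and not replicate 1. In all, 3 regions of the combined list carried exactly this score, and the number of reads behind it is unknown.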

How the data were processed

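H3K4me1 ChIP was sequenced from 2 replicates of adult head nuclei, each with its own input per the labels. The submitters' processing notes name Bowtie 0.12.7. The authors deposited 3 region lists, which the file headers place on FlyBase release 5, with a score of unstated scale. The caller and its threshold are not given in the sources used here, input files were not analysed here, and depth is unknown.

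Widths, gaps, covered shares and overlaps (at least 1 bp) were computed with Python 3.11.15, NumPy 2.4.6 and SciPy 1.17.1, by functions tested on simulated lists. Width classes were under 2, 2 to 3, 3 to 5, 5 to 8, and 8 kb and over. Shares have exact Clopper-Pearson 95% intervals. With 2 replicates of 1 condition no test between groups was possible. Named are, in the combined list, the 5 top-scoring and 5 widest regions found in both replicates, the top-scoring found in neither and the 5 longest gaps, for each replicate its 3 top-scoring unshared regions, and extreme windows. The list maxima and the 100-kb ends were added after their values were seen. The members and these rules were chosen with earlier results of these data known.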

Additional observations from a re-analysis of the deposited data

How the results depend on the processing

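No paired analysis was possible because only the ChIP samples, a single group, had region lists. In all, 55 alternatives were computed for 9 results, 8 of them chosen after seeing the data. The ratio of covered share to the arms, 1.52 as the mean of the replicates, fell to 0.91 in the higher-scoring 50% of each list. Only replicate 1 changed direction there, with 0.51 against 1.31 in replicate 2 and 1.05 in the combined list. In the same higher-scoring 50% without both 100-kb ends the mean was 0.84, from 0.55 in replicate 1 and 1.13 in replicate 2. The ratio kept its direction with single arms, regions per Mb, the combined list or all regions without the ends. The covered share was 13.0% in the higher-scoring 50% and 47.3% in the combined list. The median width was 3812 bp in the higher-scoring 50%, 2440 bp after joining and 2674 bp in the combined list, and the median gap 15669.5, 3308 and 1971 bp. The share of replicate 1 regions found in replicate 2 was 78.6% with overlap of 50% of the region, 53.4% with 50% of both, and 76.2% both with equal numbers of top-scoring regions and with the higher-scoring 50%. For replicate 2 regions these shares were 55.9%, 41.2%, 26.4% and 25%. Replicate 2 over replicate 1 was 2.36 in the higher-scoring 50%, 2.25 with equal numbers, 1.30 in regions per Mb and 1.21 without the ends. The correlation across windows was 0.746 at 25 kb, 0.874 at 100 kb, 0.730 as Pearson r, 0.485 in the higher-scoring 50% and 0.801 without the ends. Leaving out either replicate gave 28.7% to 37.9% covered, ratios of 1.27 to 1.78, widths of 2168 to 2198 bp, gaps of 2513 to 2900 bp and score percentiles of 23.7 to 34.6. The score percentile stayed below 50 in every alternative computed. The causes of these differences were not tested.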
